A study of Mus musculus with 12 samples.

Results

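Muscle contracts when calcium leaves the sarcoplasmic reticulum, and the 10 genes described here encode the proteins of the site where this happens. They were chosen by gene symbol from a list of the cardiac ryanodine receptor and the proteins around it: Ryr2, Asph, Casq1, Casq2, Trdn, Jph1, Jph2, Fkbp1a, Fkbp1b and Hrc. All 10 were found among the 51826 entries of the gene count table, and all 10 passed the filter on low counts in every comparison. Measured values played no part in the choice, although results of these data were already known when the list was made.

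The study sequenced poly(A)-selected RNA of atria and ventricles from hearts of a mouse model of myotonic dystrophy, a disease caused by RNA that carries expanded CUG repeats. The 3 CUG960 +dox mice (V119, V120 and V123) were TREDT960I(H)/MHCrtTA(hemi), with a transgene of human DMPK exons holding 960 interrupted CUG repeats and a rtTA transactivator. The 3 MHCrtTA +dox control mice (V327, V333 and V334) were MHCrtTA(hemi), with the transactivator and no repeat transgene. All 6 mice were females of the FvB strain, received doxycycline (dox) from postnatal day 1, and were 10 weeks old. Each mouse gave 1 atrial and 1 ventricular library, 12 in all, with between 116127966 and 160676189 counts. The αMHC promoter that drives rtTA is active in cardiomyocytes, so only these cells were meant to express the repeat RNA. The genotypes came from different matings, and presence of the transgene, parentage and expression of repeat RNA cannot be told apart.

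At the junction, a fold of the cell membrane called the T-tubule lies against the reticulum. Calcium entering through the membrane opens RyR2, the release channel, and a far larger amount of calcium flows out of the reticulum. Calsequestrin holds calcium inside the reticulum, triadin and junctin tie it to RyR2, junctophilins hold both membranes together, and FK506-binding proteins bind the cytosolic face of the channel. Inherited variants of RYR2, CASQ2 and TRDN are known causes of catecholaminergic ventricular tachycardia, an arrhythmia brought on by stress.

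In CUG960 +dox hearts, mRNA of the release channel fell in both chambers, by 30.8% in atria and 37.3% in ventricles, while mRNA of cardiac calsequestrin rose by 41.5% and 39.3%. Trdn and Fkbp1b rose in atria. Asph rose and Jph1 fell in ventricles. Casq1, Jph2, Fkbp1a and Hrc passed the test in neither chamber. Levels are given in CPM, the counts of a gene scaled to a common library total with TMM factors over the 12 libraries, and a gene was said to change where the Benjamini-Hochberg adjusted P value of edgeR's quasi-likelihood test was under 0.05. In bulk tissue, fewer cells of a type and less RNA per cell cannot be told apart.

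**Figure D1:**
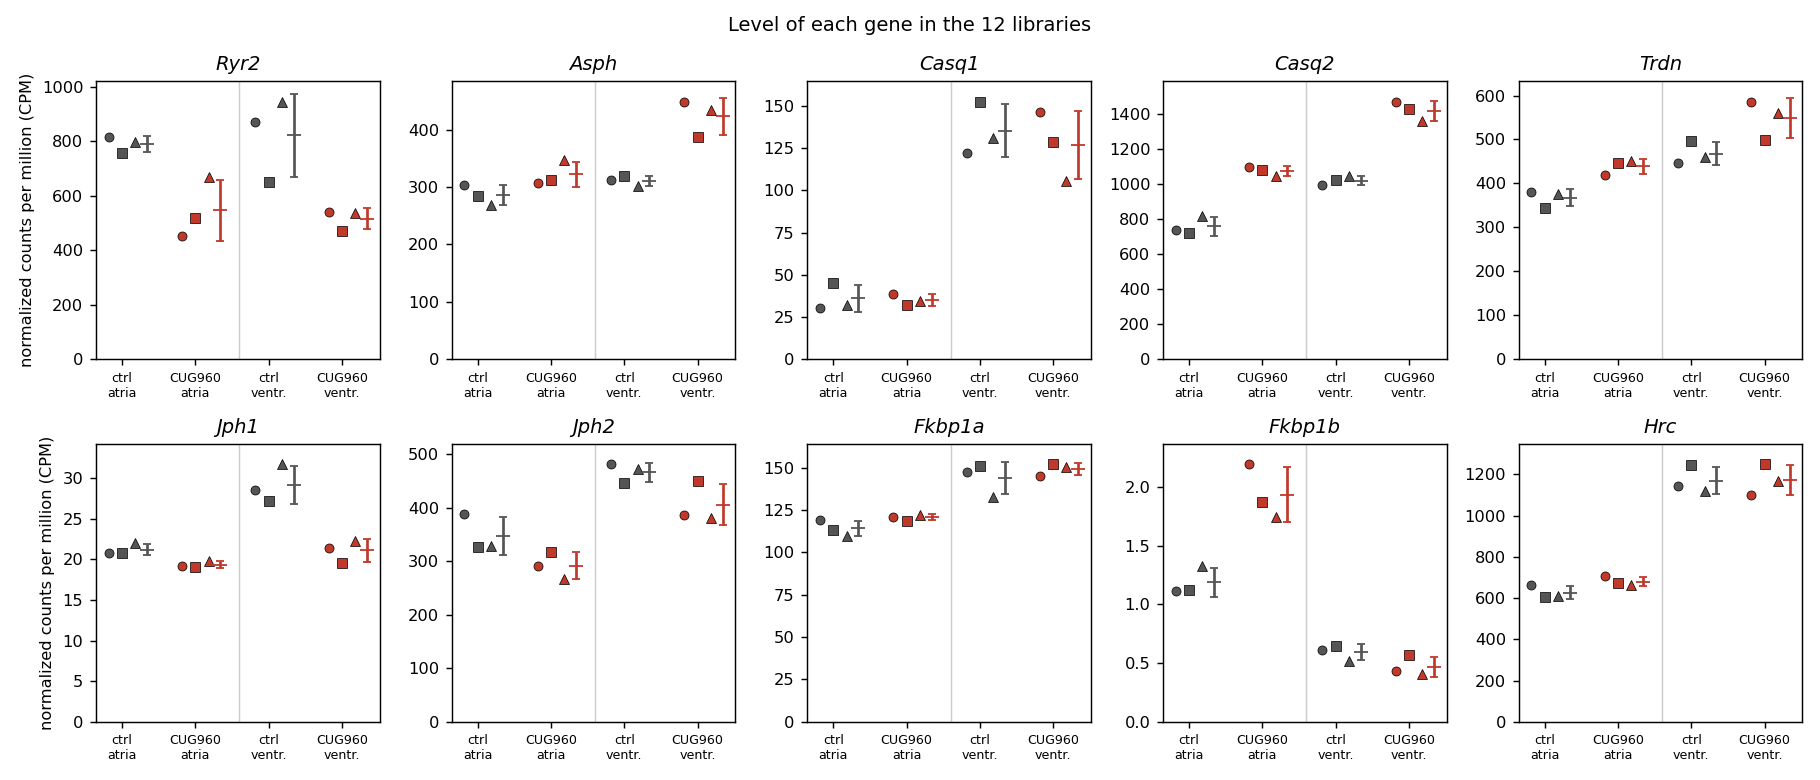
Normalized CPM (vertical axes, from 0) of the 10 genes in the 12 libraries, with control groups in grey and CUG960 +dox in red; within a genotype the same symbol is the same mouse, and bars are mean ± SD (n = 3). The red points of Ryr2 lie under the grey points and those of Casq2 above them in both chambers, while Hrc overlaps in ventricles.

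The start sites of 7 of the 10 genes were found in the RefSeq promoter table, and 3 are shown because their genes did different things: Casq2 rose, Ryr2 fell, and Hrc, another abundant protein of the reticulum lumen, passed no test between genotypes. Each sequence is the 250 bases before the RefSeq start site in GRCm38.p6, on the strand of the gene, and lies outside the annotated gene. Capitals mark matches, on either strand, to 5 motifs known from muscle and heart genes or core promoters. MEF2 and CArG sites were searched by name. GATA sites were searched with the letters GATAA. The TATA box was searched with the letters TATAAA. M-CAT sites were searched with the letters CATTCC. None of the matches in these 3 windows overlaps another.
Casq2, chr3:102086165-102086414, plus strand: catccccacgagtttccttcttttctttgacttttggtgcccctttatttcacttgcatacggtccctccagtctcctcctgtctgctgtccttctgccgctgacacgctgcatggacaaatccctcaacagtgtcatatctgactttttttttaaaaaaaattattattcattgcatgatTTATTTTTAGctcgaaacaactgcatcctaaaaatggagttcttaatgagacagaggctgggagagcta
Ryr2, chr13:12106946-12107195, minus strand: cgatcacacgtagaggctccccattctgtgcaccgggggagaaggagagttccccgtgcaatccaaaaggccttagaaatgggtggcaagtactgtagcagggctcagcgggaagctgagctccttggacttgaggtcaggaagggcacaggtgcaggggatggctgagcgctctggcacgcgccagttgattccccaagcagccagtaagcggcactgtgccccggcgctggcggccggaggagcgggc
Hrc, chr7:45335019-45335268, plus strand: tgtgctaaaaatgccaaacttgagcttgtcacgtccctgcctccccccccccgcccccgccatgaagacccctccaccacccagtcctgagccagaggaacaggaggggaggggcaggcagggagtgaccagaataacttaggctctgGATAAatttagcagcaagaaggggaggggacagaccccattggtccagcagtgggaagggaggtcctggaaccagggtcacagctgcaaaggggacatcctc
The Casq2 window held 1 MEF2 match, at positions -69 to -60 from the start site, and 3.01% of 27025 RefSeq promoters held one in a window of the same length. The Hrc window held 1 GATA match, as did 23.0% of all promoters. The Ryr2 window held no match to any of the 5 motifs. E-boxes (CANNTG), which are not capitalised, occurred in 66.0% of all promoters, with 2 in the Casq2 window, 2 in that of Ryr2 and 1 in that of Hrc. The windows differed in base composition, with 41.6% G and C for Casq2, 63.2% for Ryr2 and 59.6% for Hrc. These are matches of letters, and no binding was measured.

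Ryr2 (ENSMUSG00000021313, chr13:11553102-12106945, minus strand, GRCm38) encodes the channel that releases calcium at each beat. In atria, Ryr2 stood at 814, 758 and 796 CPM in control mice V327, V333 and V334, and at 453, 516 and 669 CPM in CUG960 mice V119, V120 and V123. Every CUG960 atrium was below every control, and V123 was the nearest to the controls. The log2 fold change was -0.53 ± 0.13 (SE), with an adjusted P value of 0.030 from edgeR. In ventricles the control values were 870, 650 and 945 CPM and the CUG960 values 539, 470 and 536 CPM. The groups again did not overlap, and V333 was the low control. The log2 fold change was -0.67 ± 0.13 (SE), with an adjusted P value of 0.015 from edgeR, and Ryr2 was the only one of the 10 genes in ventricles past both this threshold and a fold change of 1.5.

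The atrial call of Ryr2 depended on the mice. With 1 mouse left out, the edgeR adjusted P value stayed under 0.05 only without V123, and the log2 fold change ran from -0.71 to -0.41 over the 6 fits. In ventricles the call was lost without V120 (adjusted P value 0.064) and without V327 (0.058). The Ryr2 transcript is long, up to 16814 bases, so its counts could move with a loss of long transcripts. Among the 253 genes of at least 10 CPM whose longest transcript was 10000 bases or more, the median log2 fold change was -0.11 in atria and 0.03 in ventricles. Of these 253 genes, 12 had a fold change at or below that of Ryr2 in atria, with Ryr2 itself counted, and in ventricles Ryr2 was the lowest of them. Whether transcript length had a part in the atrial difference was not tested.

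Casq2 (chr3:102086415-102146514, plus strand) encodes cardiac calsequestrin, the main calcium-binding protein inside the reticulum of heart muscle. In atria its level was 738, 718 and 819 CPM in controls and 1095, 1082 and 1043 CPM in CUG960 mice. Its ventricular level was 993, 1022 and 1044 CPM in controls and 1470, 1428 and 1358 CPM in CUG960 mice. The lowest CUG960 library was well above the highest control in each chamber, and the mice within a group were close together, with coefficients of variation between 2.52% and 7.01%. The log2 fold change was 0.50 ± 0.07 (SE) in atria, with an edgeR adjusted P value of 0.0033. It was 0.48 ± 0.08 in ventricles, with an edgeR adjusted P value of 0.0064. Among the 10 genes it was the only one called in both chambers in all 6 fits that left out a mouse, where its adjusted P values were at most 0.018 in atria and 0.044 in ventricles.

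The other proteins of the lumen passed the test in neither chamber. Casq1 (chr1:172209894-172219868, minus strand) is the calsequestrin that predominates in skeletal muscle. Its level was 30.6, 45.4 and 32.3 CPM in control atria and 38.8, 31.9 and 34.2 CPM in CUG960 atria. Control ventricles held 122, 153 and 131 CPM and CUG960 ventricles 147, 129 and 106 CPM. The genotypes overlapped in both chambers, with log2 fold changes of -0.05 (95% confidence interval -0.39 to 0.30) and -0.09 (-0.37 to 0.19). Hrc (chr7:45335290-45338974, plus strand) encodes a histidine-rich protein that binds calcium in the lumen. Its log2 fold change was 0.12 (-0.02 to 0.27) in atria and 0.00 (-0.19 to 0.20) in ventricles. Hrc was at 661, 603 and 612 CPM in control atria and at 705, 671 and 664 CPM in CUG960 atria, where the groups did not overlap. In ventricles the values of both genotypes lay between 1101 and 1249 CPM.

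Casq1 was read beside a list of 10 skeletal muscle genes, since heart samples can carry such tissue. The summed level of the list was 4.2, 3.4 and 3.8 CPM in control atria and 2.8, 2.9 and 2.3 CPM in CUG960 atria. In ventricles it was 9.9, 9.4 and 8.6 CPM in controls and 8.6, 11.5 and 11.4 CPM in CUG960 mice. The most abundant gene was Cacna1s, and Myh4, a fast skeletal myosin, was at 0 in the 3 control ventricles. The whole list summed to less than Casq1 alone in every group. The higher sum in ventricles was mostly Cacna1s, with a mean of 8.12 CPM in control ventricles and 1.003 CPM in control atria, while Actn3, Tnnt3 and Tnni2 were higher in control atria than in control ventricles and Tnnc2 was lower. Between genotypes, Tnnt3 and Tnni2, subunits of fast skeletal troponin, fell in CUG960 atria, from means of 0.637 and 0.698 CPM to 0.153 and 0.275 CPM, and Pvalb (parvalbumin) rose in ventricles, from a mean of 0.0157 CPM to 0.266 CPM. The part of such transcripts in the level of Casq1 was not tested.

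Trdn and Asph encode triadin and junctin, which anchor calsequestrin to the channel. Trdn (chr10:33080554-33476709, plus strand) was at 381, 345 and 376 CPM in control atria and at 419, 446 and 452 CPM in CUG960 atria. All CUG960 values were above all controls, and the log2 fold change was 0.26 ± 0.06 (SE) with an edgeR adjusted P value of 0.033. This call was lost whichever of the 6 mice was left out, with adjusted P values between 0.052 and 0.13. In ventricles Trdn was at 445, 497 and 460 CPM in controls and at 586, 500 and 561 CPM in CUG960 mice. The groups barely separated there, at V120 and V333, and the log2 fold change of 0.23 ± 0.09 had an adjusted P value of 0.13.

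Asph (ENSMUSG00000028207, chr4:9448069-9669344, minus strand) is 1 gene with several products: junctin, junctate and the enzyme aspartate β-hydroxylase. The annotation holds 20 transcripts, 15 of them coding, and the deposited counts sum them, so a value for junctin alone cannot be given. In atria the values were 304, 284 and 269 CPM in controls and 308, 313 and 347 CPM in CUG960 mice. The groups did not overlap, although V119 and V327 nearly met, and the log2 fold change of 0.17 ± 0.07 (SE) had an edgeR adjusted P value of 0.15. In ventricles the values were 312, 319 and 302 CPM in controls and 449, 388 and 434 CPM in CUG960 mice. Here the groups were far apart, the log2 fold change was 0.45 ± 0.08 with an edgeR adjusted P value of 0.010, and the call held in each of the 6 fits without a mouse. The difference between these chamber effects, 0.27 ± 0.11 on the log2 scale, had an adjusted P value of 0.31, so a larger effect in ventricles was not shown. Asph overlaps Clvs1 on the opposite strand, with 2304 identical bases in their transcripts, and Clvs1 had at most 694 counts against at least 33535 for Asph.

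The junctophilins hold the reticulum against the cell membrane. Jph2 (chr2:163336242-163397993, minus strand), the main cardiac form, was at 388, 326 and 328 CPM in control atria and at 290, 316 and 267 CPM in CUG960 atria. Ventricular values were 481, 446 and 471 CPM in controls and 386, 450 and 380 CPM in CUG960 mice. The atrial groups did not overlap, the ventricular groups did at V120, and the adjusted P values were 0.10 and 0.19 in edgeR for log2 fold changes of -0.25 and -0.20. DESeq2 gave the atrial difference an adjusted P value of 0.048.

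Jph1 (chr1:16964560-17097889, minus strand), known mainly from skeletal muscle, was at 20.8, 20.8 and 22.04 CPM in control atria and at 19.2, 19.0 and 19.8 CPM in CUG960 atria. Jph1 stood in ventricles at 28.5, 27.2 and 31.7 CPM in controls and at 21.4, 19.6 and 22.3 CPM in CUG960 mice. All CUG960 libraries were below all controls in each chamber. The ventricular log2 fold change was -0.46 ± 0.09 (SE), with an edgeR adjusted P value of 0.015, which was 0.054 without V120 and just under the threshold without V327. In atria it was -0.13 ± 0.06, with an adjusted P value of 0.18. The difference between chambers, -0.33 ± 0.10, was not called either (adjusted P value 0.18).

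Of the FK506-binding proteins, Fkbp1a (chr2:151542483-151561692, plus strand) encodes FKBP12 and Fkbp1b (chr12:4833174-4841591, minus strand) encodes FKBP12.6, the form that binds RyR2 with high affinity. Fkbp1a was at 118.9, 113 and 110 CPM in control atria and at 121, 118.8 and 122 CPM in CUG960 atria. Its ventricular values were 148, 151 and 133 CPM in controls and 145, 152 and 150 CPM in CUG960 mice. The groups overlapped in both chambers, with log2 fold changes of 0.08 (95% confidence interval -0.05 to 0.21) and 0.05 (-0.12 to 0.22).

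Fkbp1b was the least abundant of the 10, with 170 to 314 counts per library in atria and 51 to 78 in ventricles. In atria it was at 1.11, 1.12 and 1.33 CPM in controls and at 2.19, 1.87 and 1.74 CPM in CUG960 mice. The CUG960 atria were all higher, by 1.63-fold, with an edgeR adjusted P value of 0.023, and Fkbp1b was the only one of the 10 past a fold change of 1.5 in atria. The call held in 2 of the 6 fits without a mouse, those without V123 and without V334. Ventricles held less, at 0.614, 0.646 and 0.518 CPM in controls and 0.432, 0.565 and 0.408 CPM in CUG960 mice. These groups overlapped, and the log2 fold change was -0.34 (95% confidence interval -0.91 to 0.24). The effect in ventricles minus that in atria was -1.04 ± 0.26 (SE), the largest such difference among the 10 genes, with an adjusted P value of 0.083 in edgeR and 0.013 in DESeq2.

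**Figure D2:**
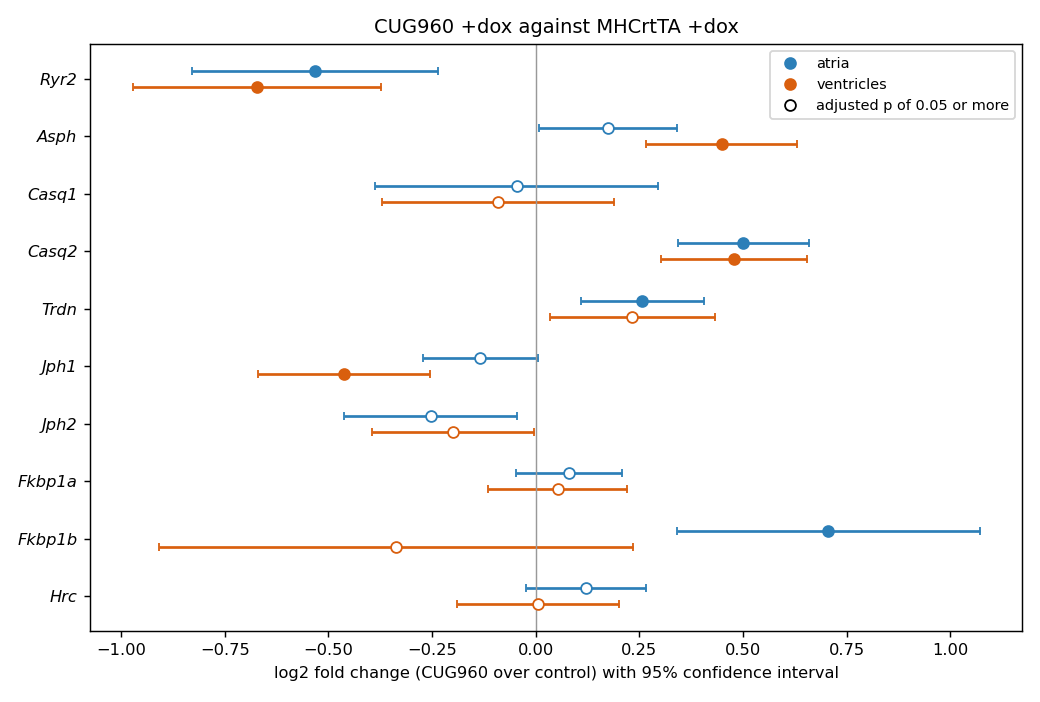
Log2 fold change of CUG960 +dox over MHCrtTA +dox (horizontal axis) for each gene with its 95% confidence interval, in atria (blue) and ventricles (orange); filled points have an edgeR adjusted P value under 0.05. Ryr2 lies left of 0 and Casq2 right of 0 in both chambers, and Fkbp1b lies on opposite sides, with an open point in ventricles.

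In atria 4 of the 10 genes were called, 3 higher and 1 lower, and the call rate over all 17650 genes tested was 14.6%. In ventricles 4 of 10 were called, 2 in each direction, against 9.94% of 16909 genes. Calls were more frequent among abundant genes, at 19.1% in atria and 12% in ventricles where the mean was 10 CPM or more. With a fold change of at least 1.5 as a further condition, 1 of 10 was called in each chamber, and over all genes 5.49% in atria and 4.75% in ventricles. The 3 mice of each genotype did not overlap for 8 of the 10 genes in atria, where this held for 35.7% of all genes, and for 5 of 10 in ventricles, where it held for 31.2%. The median log2 fold change of the 10 was 0.10 in atria and -0.04 in ventricles, beside -0.01 over all genes in each chamber. The median size regardless of sign was 0.21 and 0.29, beside 0.19 over all genes in each chamber. The genotype comparisons of the chambers rest on different libraries of the same 6 mice. For the interaction of chamber and genotype, none of the 10 was called by edgeR, and 1.38% of 18327 genes were called. An unadjusted P value under 0.05 was found for 3 of the 10 (Fkbp1b, Jph1 and Asph) and for 12.3% of all genes. DESeq2 called Fkbp1b.

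**Figure D3:**
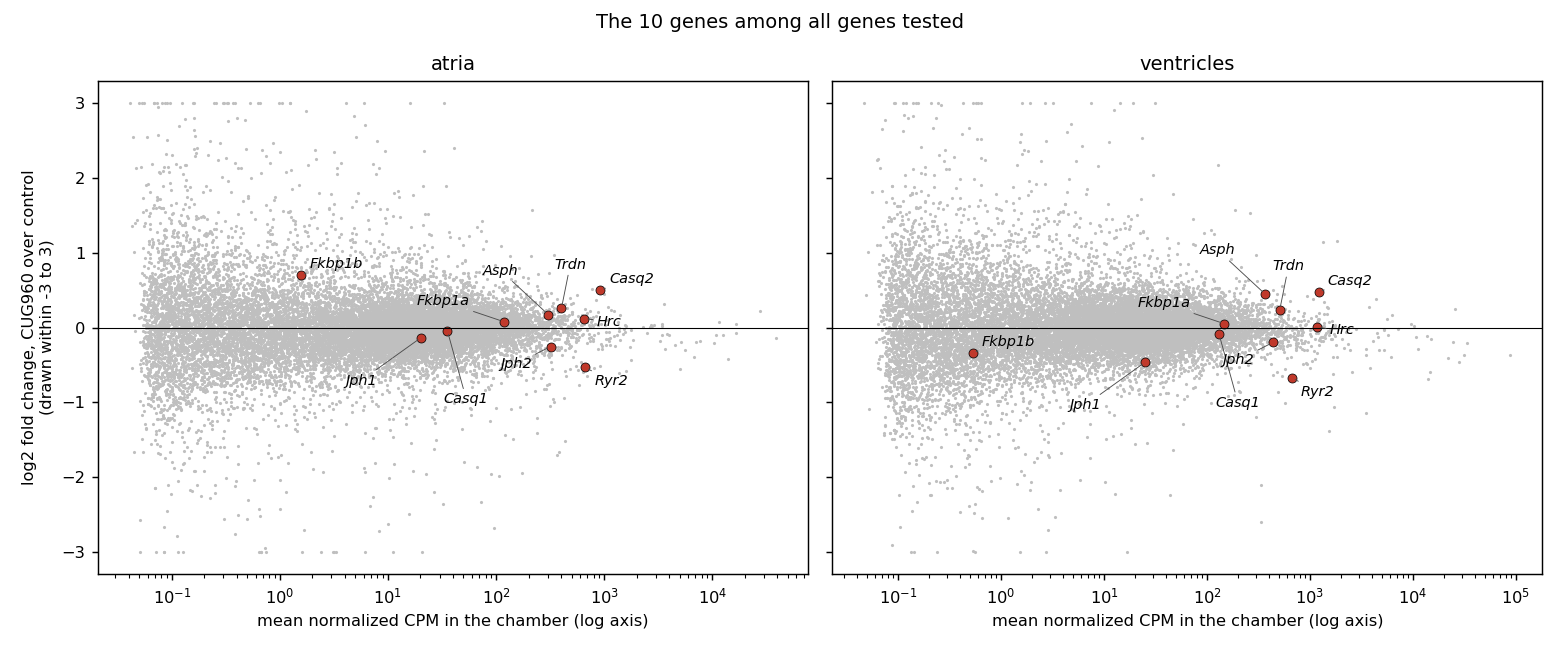
Log2 fold change of CUG960 +dox over control (vertical axis, values beyond 3 drawn at the edge) against mean CPM (horizontal log axis) for all genes tested in atria and ventricles (grey), with the 10 genes in red. Casq2 and Ryr2 lie at the edges of the grey cloud at their level, and most of the other red points lie within it.

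Ratios of genes within a library do not depend on how libraries are scaled to each other, and they set Ryr2 beside its partners. Of the 4 partners used, Fkbp1a was called in neither chamber, Asph not in atria and Trdn not in ventricles. There were 0.906, 0.948 and 1.03 Casq2 counts for each Ryr2 count in control atria and 2.42, 2.10 and 1.56 in CUG960 atria. In ventricles there were 1.14, 1.57 and 1.10 in controls and 2.73, 3.04 and 2.53 in CUG960 mice. The groups did not overlap in either chamber, and the geometric mean ratio was 2.08-fold higher in CUG960 atria and 2.20-fold higher in CUG960 ventricles. The ratio of Trdn to Ryr2 was 1.75-fold and 1.85-fold higher, that of Asph, with all its products summed, to Ryr2 1.65-fold and 2.15-fold, and that of Fkbp1a to Ryr2 1.55-fold and 1.64-fold. All 4 share Ryr2 as the denominator, and those of Casq2, Trdn and Fkbp1a were added after the fold changes were seen. In atria V123 had the lowest of the CUG960 ratios and in ventricles V333 had the highest of the control ratios, each time the library whose Ryr2 level was nearest the other genotype.

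Between close relatives, the ratio of Casq1 to Casq2 was 0.69-fold in CUG960 atria and 0.67-fold in CUG960 ventricles relative to controls, with no overlap. The ratio of Asph, with all its products summed, to Trdn overlapped in atria and was 1.16-fold higher in CUG960 ventricles without overlap. It is not a ratio of junctin to triadin. The ratio of Jph1 to Jph2 overlapped in atria and was 0.84-fold in ventricles, where V123 at 0.0587 and V327 at 0.0593 nearly met. The ratio of Fkbp1b to Fkbp1a was 1.54-fold in atria and 0.76-fold in ventricles, with no overlap in either. In ventricles V120 at 0.00372 and V334 at 0.00390 nearly met, on 78 and 58 counts of Fkbp1b. Together the 10 genes took between 0.368% and 0.398% of all counts in controls and between 0.405% and 0.440% in CUG960 libraries.

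**Figure D4:**
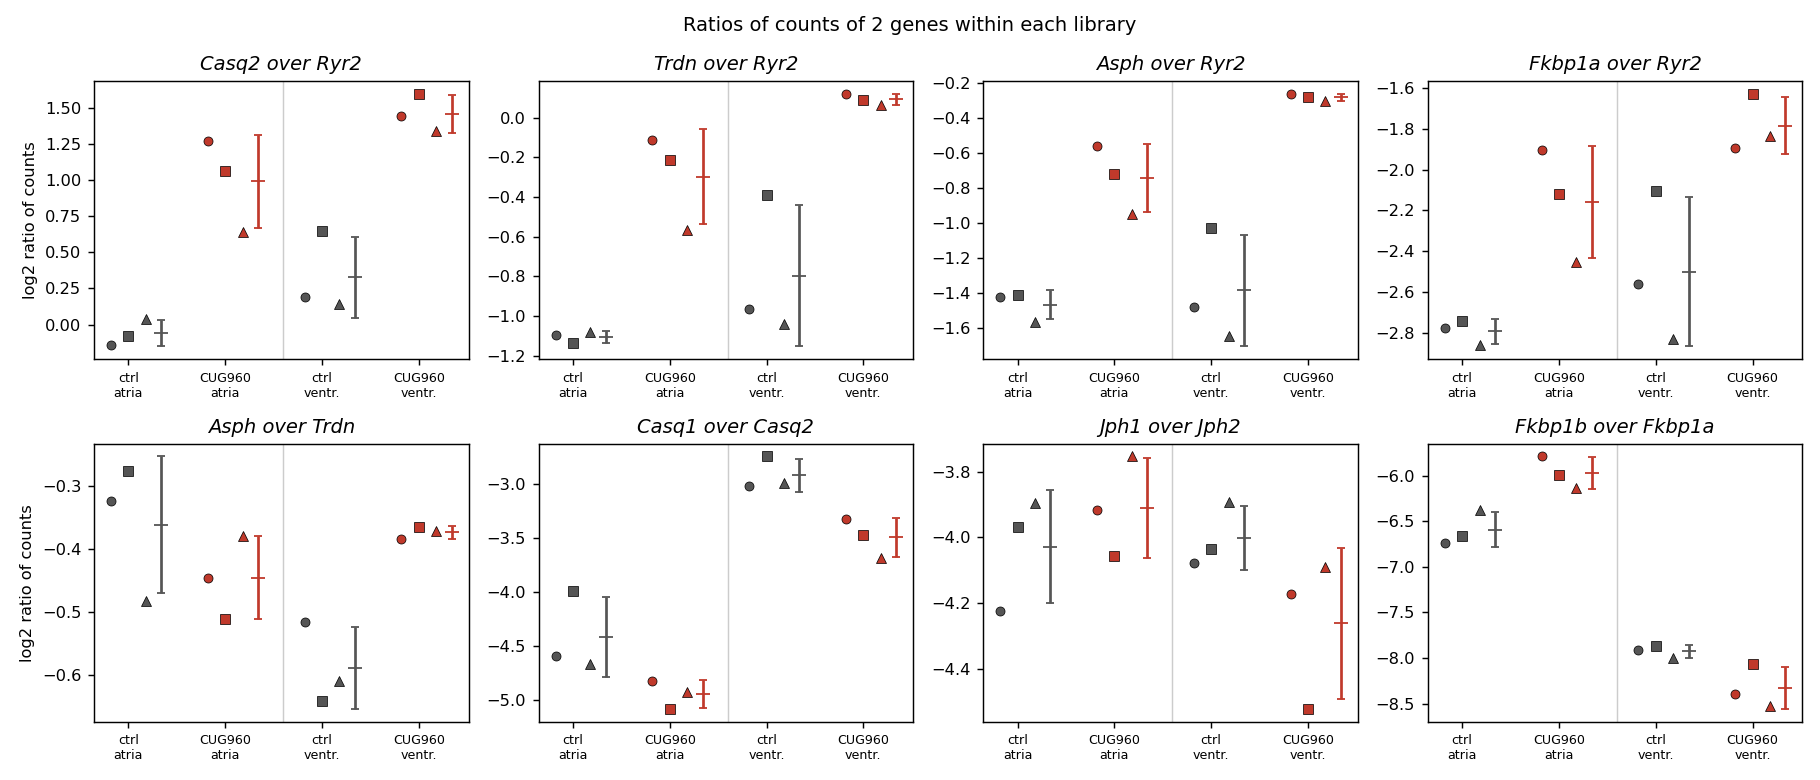
Log2 of the count of one gene over that of another in the same library (vertical axes, which do not start at 0) for 8 pairs, with controls in grey and CUG960 +dox in red and bars giving mean ± SD (n = 3). In the upper row, where Ryr2 is the denominator, all red points lie above the grey points of the same chamber.

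Most of the 10 genes also differed between chambers. In controls, 7 were lower in atria than in ventricles, 1 was higher and 2 were not called, where 55.7% of 17451 genes were called, 27.5% lower and 28.3% higher. In CUG960 hearts the counts were the same, with 54.2% of 17559 genes called, 27.5% lower and 26.7% higher, but Asph took the place of Jph1 among those lower. Of the genes lower in atria, Casq1 had the largest difference, with log2 fold changes of atria over ventricles of -1.91 ± 0.16 (SE) in controls and -1.87 ± 0.12 in CUG960 mice. Hrc came next among these, at -0.91 ± 0.08 and -0.80 ± 0.08. Casq2, Trdn, Jph2 and Fkbp1a were also lower in atria in both genotypes, with log2 fold changes between -0.49 and -0.32, and the call of Trdn in CUG960 mice was lost without V119 (edgeR adjusted P value 0.080). Fkbp1b alone was higher in atria, by 1.99-fold in controls and 4.09-fold in CUG960 mice.

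Ryr2 differed little between chambers, with log2 fold changes of -0.06 (95% confidence interval -0.36 to 0.23) in controls and 0.07 (-0.24 to 0.38) in CUG960 hearts. Asph was called between chambers in CUG960 hearts (-0.41 ± 0.09) and not in controls (-0.13 ± 0.07), and Jph1 in controls (-0.46 ± 0.08) and not in CUG960 hearts (-0.14 ± 0.08). These are the same libraries as in the genotype comparisons, and the interaction tests given above are the test of such differences.

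**Figure D5:**
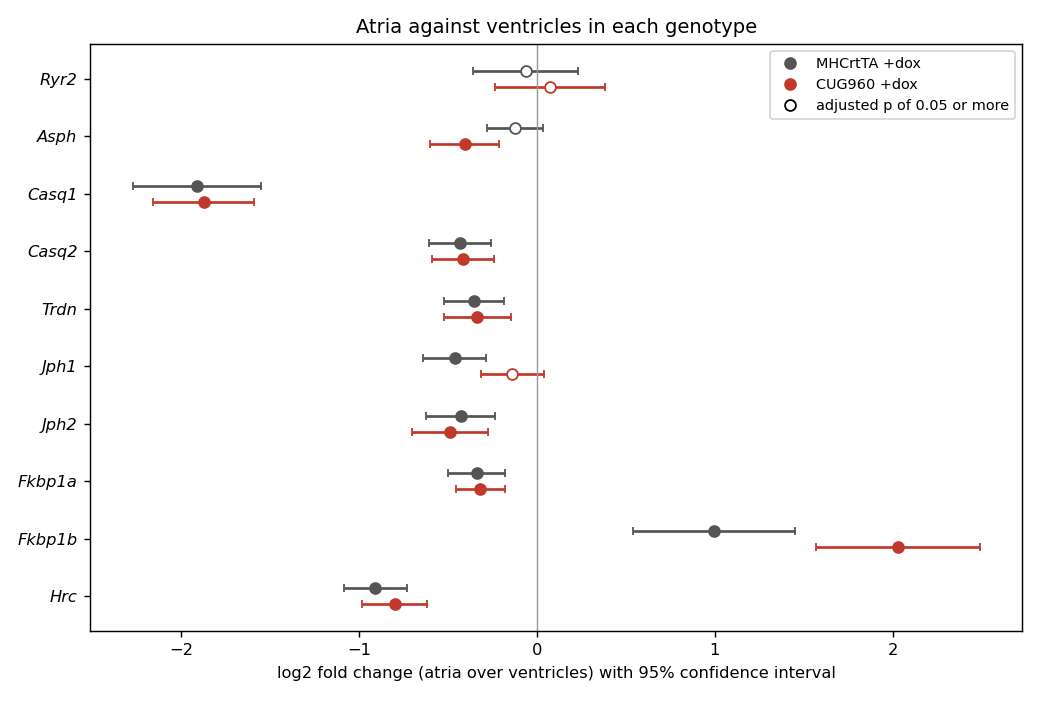
Log2 fold change of atria over ventricles (horizontal axis) for each gene with its 95% confidence interval, in controls (grey) and CUG960 +dox mice (red); filled points have an edgeR adjusted P value under 0.05. Casq1 lies farthest to the left, Ryr2 lies near 0, and Fkbp1b lies to the right, farther in CUG960 mice.

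Per kilobase of the longest transcript, the 10 genes spanned a wide range. By this length, in control ventricles, Hrc stood at 485 ± 27.3 CPM per kilobase (SD, n = 3) and Casq2 at 399 ± 10.0. Jph2 (111 ± 4.19) and Trdn (104 ± 5.83) came next, and their difference was about the size of their spread. Casq1 (73.3 ± 8.43) and Fkbp1a (71.5 ± 4.77) did not differ beyond their spread, nor did Ryr2 (48.9 ± 9.11) and Asph (46.4 ± 1.26). Jph1 (6.06 ± 0.482) and Fkbp1b (0.607 ± 0.0685) were far lower. In CUG960 ventricles Casq2 stood above Hrc, at 555 ± 22.2 against 486 ± 30.8, and Asph stood above Ryr2, at 63.3 ± 4.76 against 30.6 ± 2.32. In control atria the order began with Casq2 (297 ± 20.8) and Hrc (259 ± 13.0), and Ryr2 (47.0 ± 1.72) stood next to Asph (42.7 ± 2.60). In CUG960 atria Asph (48.2 ± 3.23) was above Ryr2 (32.5 ± 6.61). These levels treat all reads of a gene as coming from 1 transcript. The order depended in part on the length used. With lengths of merged exons, which are much longer than the longest transcript for Trdn, Fkbp1a, Asph and Ryr2, Casq1 in control ventricles (69.4 CPM per kilobase) stood above Trdn (49.98) and well above Fkbp1a (37.3), and Ryr2 (28.5) above Asph (19.3). In control atria the mean of Casq1 (18.5) then stood above that of Asph (17.8), although Casq1 was below Asph in V327 and V334. In CUG960 atria and ventricles Jph2 then stood above Trdn. The ranks of Casq2, Hrc and Ryr2 were the same by both lengths in each of the 4 groups.

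Around the channel, lists of related genes were examined. Of 11 cytosolic partners and regulators of RyR2, 1 rose and 4 fell in atria and 0 rose and 3 fell in ventricles, with a median log2 fold change of -0.22 and -0.20. The direction-specific rates over all genes were 7.95% higher and 6.62% lower in atria, and 5.73% and 4.2% in ventricles. Cmya5, which encodes myospryn, a large muscle protein that helps place the junctional reticulum, was the only one of the 11 past a fold change of 1.5. It was between 709 and 771 CPM in control atria and between 386 and 503 CPM in CUG960 atria, a log2 fold change of -0.77 ± 0.10 (SE) with an edgeR adjusted P value of 0.0024. In ventricles it was between 541 and 763 CPM in controls and between 388 and 441 CPM in CUG960 mice, a change of -0.65 ± 0.12 with an edgeR adjusted P value of 0.011. The groups did not overlap in either chamber, as for Ryr2. Others called, chosen after their values were seen, were Sri (sorcin), which fell by 0.21 on the log2 scale in atria and by 0.29 in ventricles, Speg, lower in atria, Calm2, lower in ventricles, and S100a1, higher in atria.

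Of 18 tested genes of other release channels, junctions and stores, 3 rose and 2 fell in atria and 2 rose in ventricles. Over all genes 14.6% were called in atria and 9.94% in ventricles, and the ventricular count of this list was near that share. Ryr3, the ryanodine receptor of low abundance in many tissues, was between 0.646 and 0.886 CPM in control ventricles and between 1.23 and 2.15 CPM in CUG960 ventricles, and its log2 fold change was 1.24 ± 0.25 (SE) with an edgeR adjusted P value of 0.016. In atria it was far higher, with a mean of 11.3 CPM in controls and 13.0 CPM in CUG960 mice, and was not called. Jph3, a junctophilin of neurons, rose in both chambers from means under 0.15 CPM, by 2.31 ± 0.37 in atria and 1.64 ± 0.35 in ventricles on the log2 scale, on between 9 and 84 counts per library. Among the rest, Itpr1, an IP3 receptor, and Tmem38b, a potassium channel of the reticulum, rose in atria, and Itpr2 and Stim1 fell there. Ryr1, the channel of skeletal muscle, was at 0.0847 to 0.326 CPM as a mean in the 4 groups.

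Of 11 genes of T-tubule and dyad structure, 4 rose in atria, 3 rose in ventricles and 0 fell, with medians of 0.21 and 0.22. Over all genes 7.95% rose and 6.62% fell in atria, and 5.73% rose and 4.2% fell in ventricles. Popdc3, a Popeye domain protein of muscle membranes, rose in atria from a mean of 9.20 CPM to 23.4 CPM (log2 fold change 1.35 ± 0.14, edgeR adjusted P value 0.00098). Its effect differed between chambers, with a log2 effect in ventricles minus that in atria of -1.13 and an edgeR adjusted P value of 0.0071. Dnm2, a membrane-cutting GTPase, rose in both chambers, by 0.41 and 0.40 on the log2 scale. Mtm1 and Bves rose in atria only by the test of each chamber, as Ehd4 and Popdc2 did in ventricles, and no interaction was called for them. Of 9 genes of calcium entry and removal, Pln, the inhibitor of the calcium pump, rose and Atp2b4 fell in atria, and none was called in ventricles. Atp2a2, the pump that refills the store, had log2 fold changes of -0.21 and -0.12 and was not called in either chamber.

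The genes whose log2 CPM followed that of Ryr2 most closely over the 12 libraries, among 13111 genes, were Pcnt (Pearson r = 0.96), Cmya5 (0.96), Rrm2b (0.95), Skiv2l2 (0.94) and Jade3 (0.94). Those closest to Asph were Bhlhb9, St5 and Slc16a7 (each 0.95), Cdkl1 (0.94) and Il10rb (0.94). Of the 10 genes themselves, Trdn was nearest to Asph (0.88) and Jph1 nearest to Ryr2 (0.66). The 12 libraries come from 6 mice in 4 groups, so these values can hold differences between groups that genes share. How much of them lies within groups was not tested.

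The samples were checked against markers. Atrial Nppa averaged 15892 CPM in control atria and 62.6 CPM in control ventricles, and ventricular Myl2 averaged 18.0 and 9407 CPM, as the labels say. The ventricular libraries differed in atrial markers. The 5 of them, led by Nppa, summed to 77.6, 77.3 and 153 CPM in control ventricles V327, V333 and V334 and to 91.4, 231 and 312 CPM in CUG960 ventricles V119, V120 and V123. Their part in the ventricular values of the 10 genes was not tested. The summed level of 8 cardiomyocyte genes, led by Myh6, was 43688, 42784 and 44283 CPM in control atria and 46603, 45995 and 44768 CPM in CUG960 atria. In ventricles it was 54821, 57030 and 53902 CPM in controls and 56036, 61407 and 57519 CPM in CUG960 mice. Myh6, the main myosin of the adult mouse heart, differed by more than the sums did, with means of 25506 and 29796 CPM in control and CUG960 atria and 23311 and 27649 CPM in ventricles. Of the 8 genes edgeR called Myh6 higher (0.22 on the log2 scale, adjusted P value 0.039) and Ckm, muscle creatine kinase, lower (-0.60, adjusted P value 0.0029) in atria, and Mybpc3, a myosin-binding protein, higher in ventricles (0.38, adjusted P value 0.044). The median log2 fold change of the 8 was -0.17 in atria and -0.05 in ventricles, and none was at 0. Their part in the changes of the 10 genes was not tested. Of the 5 ventricular markers, Hey2, a transcription factor, fell in both chambers, by 0.67 on the log2 scale in atria and by 0.52 in ventricles, and Irx4 rose in ventricles.

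The 5 endothelial markers, led by Pecam1 in atria and Kdr in ventricles, moved with genotype. Their sum was 586, 600.2 and 504 CPM in control atria and 390.4, 436 and 399 CPM in CUG960 atria. In ventricles it was 781, 628 and 716 CPM in controls and 533, 501 and 544 CPM in CUG960 mice. The groups did not overlap, 3 of the 5 fell in atria (Pecam1, Cdh5 and Tie1) and 2 in ventricles (Pecam1 and Cdh5), and none was at 0. Over all genes 6.62% fell in atria and 4.2% in ventricles. The share of mitochondrial counts was 11.8% to 12.2% in control atria and 10.9% to 11.98% in CUG960 atria. It was 19.6% to 20.5% in control ventricles and 15.3% to 18.4% in CUG960 ventricles. The part of the endothelial and mitochondrial differences in the changes of the 10 genes was not tested.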

How the data were processed

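Gene expression was measured by RNA-Seq in both chambers of 6 hearts, 3 of each genotype, with a stranded poly(A) kit. The authors aligned reads to mm10 (GRCm38) and estimated expected counts of each gene with RSEM 1.3.1 on the Ensembl annotation. The deposited values are whole numbers, not scaled, with no filter on low counts. The strand setting of the counting is not given in the sources used here. Counts sum all transcripts of a gene, so they do not tell its isoforms apart. A change in splicing that alters transcript length or abundance could move a count, and its part was not tested.

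Counts were compared with edgeR 4.0.16 in R 4.3.3 by its quasi-likelihood test after filterByExpr and TMM. The Benjamini-Hochberg adjustment covered every gene tested, and the threshold was 0.05. Each chamber was fitted alone for genotype and each genotype alone for chamber, and the interaction of chamber and genotype used all 12 libraries. Log2 CPM used a prior count of 2. DESeq2 1.42.0, other normalizations and filters, a fold change limit of 1.5 and leaving out each mouse were alternatives. The fits were also run on simulated counts. These were drawn with spreads that edgeR estimated from these data, so they cannot show whether its model suits these libraries. The chi-square statistic per degree of freedom between libraries of a group was between 38.3 and 113, so mice differed beyond counting error and their number limits precision. An exact permutation test of 3 against 3 cannot go below 0.1. Promoter sequences are from RefSeq.

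Atria and ventricles of a mouse share its number in the labels. After group means were subtracted, the 6 same-mouse pairs of libraries correlated at r between 0.0522 and 0.303, and the 12 pairs of libraries from different mice within a genotype at r between -0.282 and 0.122. The mouse pairs the chambers, not the genotypes.

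The 10 genes and the lists of related and marker genes were chosen with earlier results of these data known. Named by rule were all 10 genes, list genes called between genotypes with a fold change of at least 1.5, the 5 genes closest to Asph and to Ryr2, and the most abundant marker over the 12 libraries of the lists printed. Other list genes named, such as Sri, Dnm2 and Atp2a2, were chosen after their values were seen. Marker lists of smooth muscle, fibroblasts and leukocytes were also summed. The result of 1 list gene is not reported here.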

Additional observations from a re-analysis of the deposited data

How the results depend on the processing

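The calls of Casq2 in both chambers and of Asph in ventricles held under every alternative run except a fold change limit of 1.5, which neither gene reached, and no called value changed sign. With a fold change limit of 1.5, 1 gene of the 10 was called in atria and 1 in ventricles, with 969 and 804 of all genes, and 3 of the 10 between chambers in each genotype, with 6098 of all genes in controls and 5900 in CUG960 mice. Leaving out 1 mouse at a time gave 1 to 3 of the 10 called in atria, where the full fit called 4, and 1235 to 2584 of all genes. In ventricles it gave 2 to 4 of the 10 and 784 to 1347 of all genes, where the full fit called 1680. For the interaction it gave 74 to 131 of all genes, where the full fit called 253. DESeq2 called 652 genes for the interaction, of which 1 was among the 10 (Fkbp1b, -1.05, adjusted P value 0.013), and 3427 and 2492 genes by genotype in atria and ventricles.

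With 1 mouse left out, 19 single-gene results lost the threshold and 17 changed sign, each of these small and not called in the full fit. The log2 fold changes that crossed 0 ran from -0.16 to 0.15 (Casq1, atria), -0.21 to 0.023 (Casq1, ventricles) and -0.042 to 0.053 (Hrc, ventricles). The chamber difference of Ryr2 ran from -0.18 to 0.044 in controls and from -0.062 to 0.22 in CUG960 mice. The interaction ran from -0.30 to 0.00080 for Ryr2, -0.14 to 0.053 for Casq1, -0.061 to 0.027 for Casq2, -0.11 to 0.075 for Trdn, -0.012 to 0.10 for Jph2 and -0.054 to 0.024 for Fkbp1a. The cause of these differences was not tested, beyond the smaller number of mice. With the mouse as a replicate block, the paired fits called 8 of the 10 between chambers in each genotype and 0 for the interaction, as without it, and the number of genes called for the interaction moved by less than 1.5 times. Scaling by other size factors and other filters changed no call of the 10. A P value here sets a difference against a spread estimated from 3 mice a group, with information from all genes. The low counts of Fkbp1b limit what its ventricular difference can show.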

Other observations

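Other cell types of the samples were followed through their markers. The 5 fibroblast markers, led by Dcn, summed to 2174 ± 168 CPM (SD, n = 3) in control atria and 1842 ± 167 CPM in CUG960 atria, where Col1a2 and Pdgfra fell. In ventricles they summed to 1178 ± 102 CPM in controls and 1205 ± 5.99 CPM in CUG960 mice, and none was called by edgeR. The 5 leukocyte markers, led by Csf1r, were called in neither chamber by edgeR. They summed to 84.9 ± 19.8 CPM and 80.0 ± 1.86 CPM in atria and to 35.6 ± 5.15 CPM and 32.2 ± 3.56 CPM in ventricles, controls first.

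The 5 smooth muscle markers, led by Acta2 except in control ventricles, where Smtn was higher, summed to 394 ± 69.0 CPM in control atria and 419.9 ± 89.0 CPM in CUG960 atria, and to 368 ± 37.5 CPM and 309 ± 65.8 CPM in ventricles. Tagln rose and Smtn fell in atria, while Myh11, Tagln and Smtn fell in ventricles, and Tagln was called for the interaction of chamber and genotype by edgeR. Of the 5 atrial markers, 1 was called in atria and 2 in ventricles, where 14.6% and 9.94% of all genes were called. Nppa, which encodes atrial natriuretic peptide, fell in CUG960 atria, where its mean was 11871 CPM against 15892 CPM in controls. It rose in CUG960 ventricles, from a mean of 62.6 CPM to 154 CPM, and its interaction was called by edgeR as well. Myl7 ran from 0.192 to 55.9 CPM, Sln from 0.213 to 18.5 CPM and Myl4 from 4.35 to 86.3 CPM in CUG960 ventricles. The part of these differences in the ventricular change of Nppa was not tested. Bmp10, a growth factor of the atrial wall, moved the other way in ventricles, from a mean of 2.86 CPM in controls to 0.172 CPM in CUG960 mice (log2 fold change -4.06 ± 0.50 (SE), edgeR adjusted P value 0.0016). It was at 1554 and 1585 CPM in control and CUG960 atria, and its effect in ventricles minus that in atria was -4.10 ± 0.51, with an edgeR adjusted P value of 0.0021.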
